A study of Mus musculus with 10 samples.

Results

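Palmitate synthesis in the cytosol and the NADPH that drives it were followed through 10 genes in inguinal white adipose tissue (iWAT), the subcutaneous fat pad of the groin, of male C57BL/6 mice. The genes were chosen by name, as the enzymes and the carrier of this route, and all 10 were found among the 33120 genes with an exon length. For each gene, the reads counted on its exons were compared between diets, with the reads counted on its introns beside them. F1 mice were 5 weeks old, and their fathers had been fed either a control diet (CD, 3 mice, here F1 CD) or a low-protein diet (LPD, 3 mice, here pLPD). F0 mice were 10 to 12 weeks old and had themselves been fed the CD (2 mice) or the LPD (2 mice). Total RNA was depleted of rRNA, and each mouse gave 1 library. As the study describes it, LPD feeding was limited to F0 males, and the mothers of all F1 mice ate the CD. The F1 mice of a group had different mothers and were themselves fed the CD from weaning on. Generation, age and set of libraries coincide, so that differences in level between F1 and F0 cannot be told apart from age or library set. The diet compared was the mouse's own in F0 and its father's in F1, which coincides with generation as well.

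White adipocytes make fatty acids from glucose and other fuels. Citrate leaves the mitochondrion through the carrier encoded by Slc25a1, and ATP citrate lyase (Acly) splits it into acetyl-CoA, which acetyl-CoA synthetase (Acss2) can also make from acetate. Acetyl-CoA carboxylase turns acetyl-CoA into malonyl-CoA. Its cytosolic form, encoded by Acaca, feeds fatty acid synthesis, and the form at the mitochondrial surface, encoded by Acacb, is best known for holding back the import of fatty acids for oxidation. Fatty acid synthase (Fasn) builds palmitate from acetyl-CoA and malonyl-CoA and consumes NADPH at each round. That NADPH comes from malic enzyme (Me1), from the oxidative steps of the pentose phosphate pathway (G6pdx and Pgd) and from the cytosolic isocitrate dehydrogenase (Idh1). Sterol- and carbohydrate-responsive transcription factors, SREBP-1 and ChREBP, are known to drive many of these genes together.

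In the gene models of mm10 deposited with the reads, Slc25a1 lies on chromosome 16 from 17925211 to 17928219, Acly on chromosome 11 from 100476353 to 100528000, and Acss2 on chromosome 2 from 155517948 to 155585724. Acaca lies on chromosome 11 from 84129672 to 84401651, Acacb on chromosome 5 from 114146535 to 114250761, and Fasn on chromosome 11 from 120805846 to 120824547. Of the NADPH genes, Me1 lies on chromosome 9 from 86581371 to 86695953, G6pdx on chromosome X from 74409483 to 74429194, Pgd on chromosome 4 from 149149991 to 149166771, and Idh1 on chromosome 1 from 65158616 to 65186500. All 10 are protein-coding.

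The 250 bases before the RefSeq start site are shown for the 3 genes whose RefSeq start falls on the end of the deposited gene model, since promoters of lipogenic genes are known for shared motifs. They were read from RefSeq promoters of build GRCm38.p6, 5′ to 3′ along the gene. Capitals mark matches, on either strand, to the motifs searched. These were CACGTG, an E-box that is its own reverse complement, CCAAT, the box bound by NF-Y, GGGCGG, an Sp1 box, and TCACCCCA, a sterol element.
Slc25a1, chr16:17928220-17928469, minus strand: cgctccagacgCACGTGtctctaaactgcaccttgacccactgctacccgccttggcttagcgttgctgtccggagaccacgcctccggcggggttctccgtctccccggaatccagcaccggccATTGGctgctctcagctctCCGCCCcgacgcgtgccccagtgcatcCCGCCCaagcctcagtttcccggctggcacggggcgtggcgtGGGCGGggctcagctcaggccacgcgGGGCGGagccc
Acly, chr11:100528001-100528250, minus strand: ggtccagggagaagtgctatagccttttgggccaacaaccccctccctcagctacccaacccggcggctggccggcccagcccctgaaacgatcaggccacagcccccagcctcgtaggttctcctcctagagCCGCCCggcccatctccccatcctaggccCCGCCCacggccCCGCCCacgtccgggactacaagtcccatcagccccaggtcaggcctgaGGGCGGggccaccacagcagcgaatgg
Fasn, chr11:120824548-120824797, minus strand: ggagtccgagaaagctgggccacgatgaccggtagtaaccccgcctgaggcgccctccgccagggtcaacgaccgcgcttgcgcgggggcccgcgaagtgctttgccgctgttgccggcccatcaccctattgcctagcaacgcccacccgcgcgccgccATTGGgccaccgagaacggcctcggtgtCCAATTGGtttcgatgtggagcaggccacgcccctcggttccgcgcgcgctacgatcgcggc
Slc25a1 held 1 E-box, 1 NF-Y box and 4 Sp1 boxes. Acly held 4 Sp1 boxes and none of the others. Fasn held 3 NF-Y boxes, of which an inverted pair overlaps in the run CCAATTGG, and none of the others. CACGTG was found in 6.02% of the 32851 promoter windows of the RefSeq table and, among the 10 genes, in that of Slc25a1 alone. The 10 genes had 13 windows, 3 genes having a pair. CCAAT was found in 33.8% of all windows and in 7 of these 13, and GGGCGG in 32.7% of all windows and in 8 of the 13. TCACCCCA was found in 1.34% of all windows and in none of the 13. A match describes these letters only. For Acaca and Acacb, the RefSeq start in the table lies 65766 and 18983 bases inside the deposited gene model, so that their windows are not at its first base.

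Between 6351075 and 10044546 exon reads were counted per library. Levels are given as TMM-scaled CPM of exon reads, where 3 reads correspond to 0.2997 to 0.468 CPM by counting error alone. All 10 genes lay far above it, with between 1046 and 360270 exon reads in each library, and all passed the filter on low counts in every test. The 15 adipocyte markers examined, among them Adipoq, Plin1 and Fabp4, were detected in each group. Their summed level was 26959 to 31687 CPM in F1 CD, 29327 to 37126 CPM in pLPD, 39527 to 43250 CPM in F0 CD and 34182 to 41216 CPM in F0 LPD. In such bulk tissue, fewer cells of a type and less RNA per cell cannot be told apart.

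The 10 genes held between 1.80% and 6.11% of the exon reads of a library, and most of these reads lay on Fasn. Together they held 4.49% to 6.11% of all exon reads in F1 CD, 3.42% to 4.57% in pLPD, 3.97% in the lower F0 CD mouse and 1.80% to 3.24% in F0 LPD. Fasn alone held 1.16% to 4.05% of the exon reads of a library. Per exon length (RPKM, as deposited), Fasn ranked at position 16 of the 15111 genes tested over all libraries, with a mean of 1256 RPKM, followed by Acly at 372 RPKM (position 33). Me1, Slc25a1 and Acaca had mean levels of 184, 168 and 147 RPKM. Acacb, at 65.4 RPKM, stood between these and the remaining 4 genes, Idh1 (36.8 RPKM), G6pdx (33.5 RPKM), Pgd (31.1 RPKM) and Acss2 (20.6 RPKM). These levels use all exon reads. From uniquely matching reads over the same exon length, the means were 125 RPKM for Me1, 74.6 RPKM for Acaca, 19.4 RPKM for Acss2 and 18.8 RPKM for G6pdx, which sets Slc25a1 above Me1 and G6pdx last, while the other 6 genes kept their values.

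**Figure D1:**
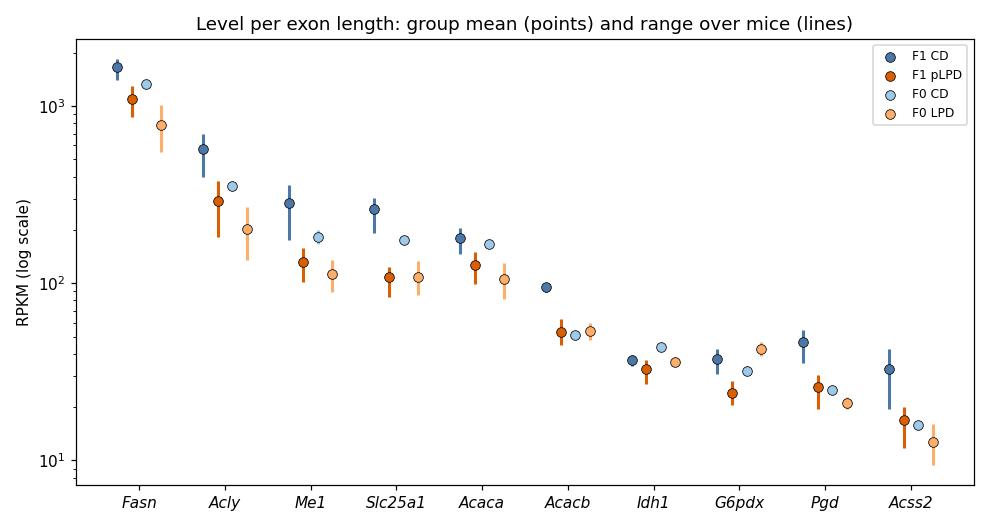
Level of the 10 genes per exon length, in RPKM on a log axis, in the 4 groups (F1 CD and pLPD, 3 mice each; F0 CD and F0 LPD, 2 mice each); points are group means and lines span the mice. Fasn has the highest mean in each group, from 783 RPKM in F0 LPD to 1672 RPKM in F1 CD. Diets were tested on TMM-scaled exon reads, since the total behind RPKM exceeds the exon reads of each library.

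Within the NADPH genes, Me1 had the largest share of the summed RPKM in each library. It was 63.5% to 72.4% in F1 CD, 60.3% to 63.0% in pLPD, 62.6% to 66.1% in F0 CD and 47.2% to 57.8% in F0 LPD. The ranges of the diets did not overlap in either generation, although in F1 the gap between mouse 3 of F1 CD (63.5%) and the highest pLPD mouse (63.0%) was small. From uniquely matching reads the share of Me1 was lower in each library, from 43.2% to 67.3%, and the diets again did not overlap. The ratio of Acaca to Acacb in RPKM was 2.01, 2.29 and 1.44 in F1 CD and 2.21, 2.53 and 2.39 in pLPD. In F0 this ratio was 3.16 and 3.39 with the CD, and 2.18 and 1.70 with the LPD. These ratios use all exon reads, of which 49.3% to 53.2% of those of Acaca, and all of those of Acacb, matched the gene alone. From uniquely matching reads the ratio was 0.998, 1.14 and 0.712 in F1 CD, 1.102, 1.26 and 1.21 in pLPD, 1.67 and 1.80 in F0 CD, and 1.14 and 0.881 in F0 LPD. Acaca stood above Acacb in all 10 mice with all reads and in 7 with unique reads, so that the order of the carboxylases depends on which reads are counted.

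The first comparison asked how the route differed in the offspring of LPD fathers. Exon reads of Slc25a1 and Acacb were lower in pLPD iWAT with an adjusted p-value under 0.05, those of Slc25a1 at 45.9% and those of Acacb at 62.2% of the F1 CD level. The log2 fold change of the other 8 genes was negative too, from −0.96 for Me1 to −0.01 for Idh1, but did not pass the threshold. A negative value was found in 48.6% of all genes tested. In edgeR's quasi-likelihood test, 2 of the 10 genes were thus called lower and none higher, beside 1.02% lower (144 genes) and 0.142% higher (20 genes) of the 14049 genes tested. At an unadjusted p under 0.05, 9 of the 10 were lower, beside 8.76% of all genes. The median log2 fold change of the 10 genes was −0.70, and that of all genes tested 0.01.

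Citrate export and acetyl-CoA supply came first in the route. Slc25a1 was at 1372, 1361 and 836 CPM in F1 CD mice 1, 2 and 3 and at 458, 560 and 608 CPM in pLPD mice 1, 2 and 3. Every pLPD mouse lay below every F1 CD mouse, and mouse 3 of F1 CD lay nearest to them. The log2 fold change was −1.12 (SE 0.18, adjusted p = 0.0178, edgeR). Acly was at 7192, 7619 and 4224 CPM in F1 CD and at 2432, 3600 and 4510 CPM in pLPD. Here the groups overlapped, since mouse 3 of F1 CD lay below the highest pLPD mouse, and the log2 fold change of −0.84 (SE 0.24) had an adjusted p of 0.124 by edgeR. Acss2 showed the same arrangement, at 789, 890 and 400 CPM in F1 CD against 300.1, 438 and 444 CPM in pLPD, with a log2 fold change of −0.80 (SE 0.25) and an adjusted p of 0.148 by edgeR.

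The carboxylases and the synthase followed. Acacb was at 1963, 1790 and 1946 CPM in F1 CD and at 1085, 1079 and 1362 CPM in pLPD. The groups were apart and the F1 CD mice close together, mouse 3 included, and the log2 fold change was −0.68 (SE 0.11, adjusted p = 0.0216, edgeR). Acaca was at 5762, 6010 and 4113 CPM in F1 CD and at 3513, 3988 and 4759 CPM in pLPD, which overlapped. Fasn was at 41990, 41695 and 30627 CPM in F1 CD and at 23851, 27091 and 31985 CPM in pLPD, and overlapped as well. Neither difference passed the threshold in edgeR, with a log2 fold change of −0.36 (SE 0.16, adjusted p = 0.313) for Acaca and −0.45 (SE 0.17, adjusted p = 0.242) for Fasn. For Acaca, uniquely matching reads gave −0.35 (adjusted p = 0.313, edgeR).

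Of the NADPH genes, Me1 had the largest difference. It was at 2644, 2845 and 1350 CPM in F1 CD and at 994, 1116 and 1376 CPM in pLPD, where only the highest pLPD mouse exceeded mouse 3 of F1 CD. Its log2 fold change was −0.96 (SE 0.23, adjusted p = 0.0703, edgeR). Between 65.6% and 68.9% of the exon reads of Me1 matched this gene alone, and a fit of uniquely matching reads gave −0.97 with an adjusted p of 0.0453. Pgd was at 706, 728 and 456 CPM in F1 CD and at 318, 389 and 440.0 CPM in pLPD, without overlap, and its log2 fold change was −0.71 (SE 0.17, adjusted p = 0.0703, edgeR). All exon reads of Pgd were unique, and the fit of unique reads, in which other genes differ, gave an adjusted p of 0.0496 for it. G6pdx was at 261, 270.4 and 190.4 CPM in F1 CD and at 160.1, 157 and 196 CPM in pLPD, with overlap, and its log2 fold change was −0.49 (SE 0.13, adjusted p = 0.110, edgeR). Idh1 had the smallest difference of the 10 genes, at 219, 226 and 190.0 CPM in F1 CD and 188, 220.2 and 216 CPM in pLPD. Its log2 fold change of −0.01 had a standard error of 0.10 and an adjusted p of 0.967 in edgeR. Groups that did not overlap, with pLPD lower, were found in 3 of the 10 genes, beside 10.9% of all genes.

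**Figure D2:**
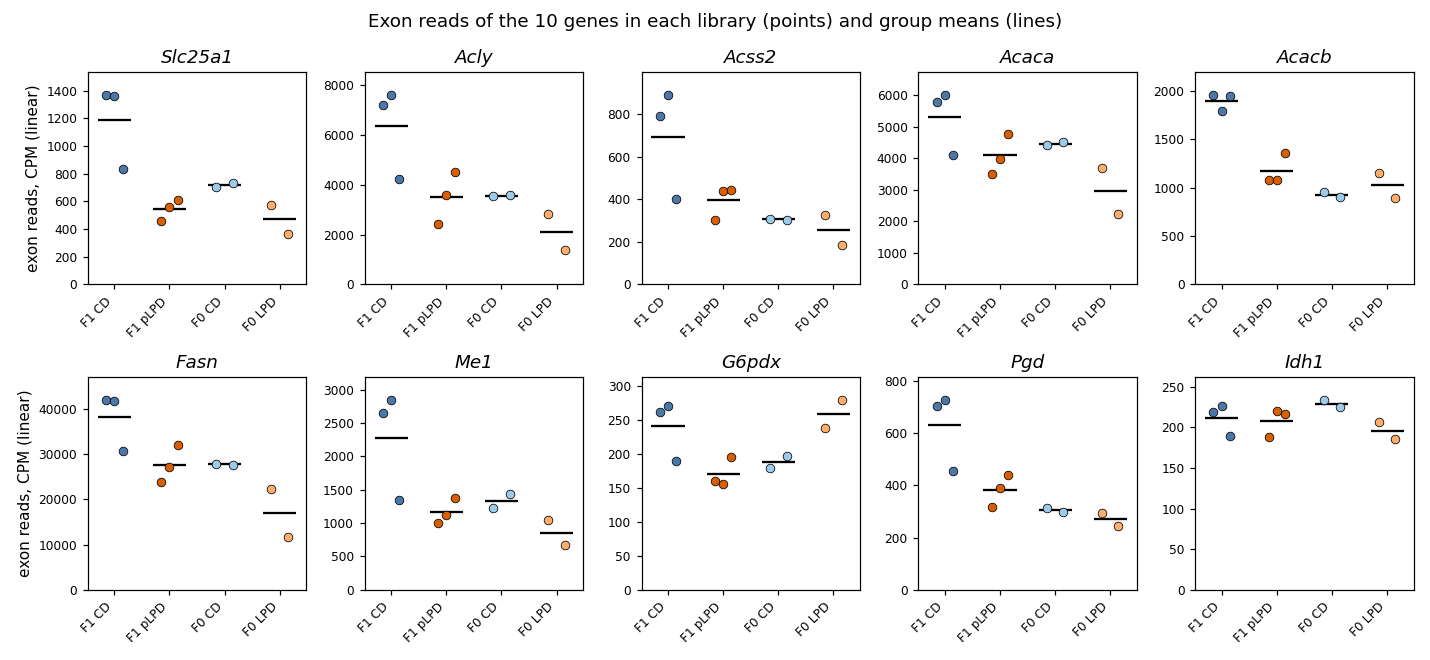
Exon reads of the 10 genes in CPM (linear axes from 0) in each of the 10 mice; points are mice, in order of their number within a group, and lines are group means. In F1 CD, mouse 3 lies below mice 1 and 2 in each gene but Acacb, and in F0 the second LPD mouse is lowest in each gene but G6pdx, where it is highest.

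A single F1 CD mouse stood apart in these genes, and the share of all genes in which it did so was not counted. Exon reads of mouse 3 were below those of mice 1 and 2 in 9 of the 10 genes, Acacb being the exception. Intron reads of mouse 3 were above both in 7 genes, among them Acss2, whose intron reads cannot be assigned to it. Without this mouse, edgeR called 8 of the 10 genes lower in pLPD, beside 370 genes lower and 140 higher in all. Mouse 3 was singled out by these same genes, and its omission raises the F1 CD mean of 9 of them by construction. The added calls are thus no separate support. The log2 fold changes were then −1.32 for Slc25a1, −1.23 for Me1, −1.08 for Acss2, −1.07 for Acly, −0.90 for Pgd, −0.67 for Acacb, −0.63 for G6pdx and −0.59 for Fasn. Acaca, at −0.52 (adjusted p = 0.0531, edgeR), and Idh1, at −0.09, were not called. Without mouse 1 or mouse 2 of F1 CD, or mouse 1 or mouse 2 of pLPD, none of the 10 genes was called. Calls fell over all genes too, from 144 lower and 20 higher to 17, 29, 44 and 20 lower and 1, 2, 8 and 4 higher, in that order. In these 4 fits, Slc25a1 had adjusted p-values of 0.0947, 0.0928, 0.0653 and 0.0894, and Acacb of 0.116, 0.0915, 0.0653 and 0.125, in that order, by edgeR. Mouse 3 of pLPD was the other whose omission left both called.

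Other measures moved with the paternal diet in the same libraries. Exons held 60.6% to 62.3% of the reads on genes in F1 CD and 51.5% to 58.5% in pLPD. With this share as a covariate in edgeR, none of the 10 genes was called (12 genes lower and 1 higher in all). The median log2 fold change of the 10 genes was then −0.28. Since the share did not overlap between the diets, this fit cannot separate it from the paternal diet. Adipocyte markers had a median log2 fold change of 0.19, with none of 15 called, 1 lower and 3 higher at an unadjusted p under 0.05 by edgeR. Of 7 macrophage markers measured, 5 were called lower in pLPD, C1qa (−0.73), Cd163 (−0.70), Adgre1 (−0.64), Csf1r (−0.54) and Lyz2 (−0.51), and the summed level of the list was 1037 to 1274 CPM in F1 CD and 721 to 829 CPM in pLPD. Of 5 epithelial markers tested, 3 were called lower, Krt18, Krt8 and Krt19, and the sum of the list was 15.7 to 21.4 CPM in F1 CD and 2.45 to 5.29 CPM in pLPD, with Krt5 at 0 in all 3 pLPD and both F0 CD mice. Of 8 progenitor and fibroblast markers none was called in edgeR, with 5 lower at an unadjusted p under 0.05 (Pdgfra, Dpp4, Pi16, Cd34 and Ly6a), and their sum was 1154 to 1429 CPM in F1 CD and 972 to 1254 CPM in pLPD. Of 12 B and T cell markers none was called, with 6 higher at an unadjusted p under 0.05 (Cd3e, Cd3d, Cd3g, Cd8a, Lck and Ccr7), and their sum was 596 to 694 CPM in F1 CD and 636 to 841 CPM in pLPD. The part of these differences in the lower lipogenic levels was not tested.

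The second comparison asked how the same genes stood in males fed the LPD themselves. No gene of the 10 passed the threshold in edgeR, beside 1.32% lower and 1.18% higher of the 14581 genes tested. At an unadjusted p under 0.05, 5 of the 10 were lower, Slc25a1, Acly, Acaca, Me1 and Idh1, beside 8.2% of all genes, and 1 was higher, G6pdx, beside 7.53%. DESeq2 called 1 gene, G6pdx, higher and none lower, beside 186 genes lower and 188 higher in all. The median log2 fold change of the 10 genes was −0.42, beside 0.00 for all genes tested.

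In mouse order, Slc25a1 was at 704 and 737 CPM with the CD and at 578 and 363 CPM with the LPD, and its log2 fold change was −0.61 (SE 0.19, adjusted p = 0.154, edgeR). Acly was at 3553 and 3575 CPM against 2831 and 1392 CPM. Acaca was at 4409 and 4503 CPM against 3678 and 2230 CPM. In all 3 genes both LPD mice lay below both CD mice, and the second LPD mouse lay well below the first. Fasn repeated this, at 27882 and 27636 CPM against 22243 and 11749 CPM, with a log2 fold change of −0.71 (SE 0.32, adjusted p = 0.326, edgeR). Me1, at 1230 and 1439 CPM against 1039 and 673 CPM, had a log2 fold change of −0.64 (SE 0.20, adjusted p = 0.148, edgeR). The malic enzyme gene had no overlap between diets in F0, while in F1 it had. With fewer mice per group in F0, overlap cannot be compared between generations. Groups without overlap, the low-protein group lower, were found in 23.6% of all genes in F0 and 10.9% in F1. The log2 fold change of Me1 was −0.96 in F1, and its F1 minus F0 difference was −0.33 (SE 0.38, adjusted p = 0.795, edgeR).

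Smaller differences were seen in the remaining genes. Pgd was at 314 and 299 CPM with the CD and at 293 and 246 CPM with the LPD, and Idh1 at 234 and 225 CPM against 207 and 186 CPM. Their log2 fold changes were −0.18 and −0.23. Acss2 was at 305 and 304 CPM against 327 and 186 CPM, so that the CD mice lay between the LPD mice. Acacb likewise overlapped, at 953 and 908 CPM against 1154 and 896 CPM, with a log2 fold change of 0.14 (SE 0.15, adjusted p = 0.729, edgeR). The one gene whose LPD mice both lay above the CD mice was G6pdx, which encodes the entry enzyme of the pentose phosphate pathway, at 179 and 197 CPM with the CD and 238 and 279.9 CPM with the LPD. Its log2 fold change was 0.46 (SE 0.11, adjusted p = 0.0696, edgeR). Only 50.1% to 60.3% of the exon reads of G6pdx matched it alone, and uniquely matching reads gave a log2 fold change of 0.46 with an adjusted p of 0.0577. Groups did not overlap in 7 genes with the LPD lower and in 1 with the LPD higher, beside 23.6% and 22.8% of all genes.

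The second F0 LPD mouse had the lowest exon level of the 4 F0 mice in 9 of the 10 genes and the highest in G6pdx. Such shares over all genes were not counted. Leaving out the first LPD mouse, which assumes that the lone LPD mouse varies like the CD mice, edgeR called 6 genes lower, from −1.36 for Acly and −1.24 for Fasn to −0.71 for Acss2, and G6pdx higher at 0.57, beside 194 genes lower and 281 higher in all. Leaving out the second LPD mouse, none of the 10 was called, beside 37 lower and 70 higher in all, and their median was −0.21. Skeletal muscle markers differed between the diets in F0, with 5 of 8 called lower, Myh7 (−5.65), Myh2 (−3.85), Myh1 (−2.54), Tnnt3 (−1.24) and Acta1 (−1.04). The summed level of the 8 was 1440 and 2196 CPM in the lower and the higher CD mouse and 699 and 958 CPM with the LPD, against 39.7 to 169 CPM in F1. Of 8 brown and beige adipocyte markers, 6 were called higher with the LPD, from 151 to 293 CPM in sum with the CD to 698 to 817 CPM with the LPD. Their part in the levels of the 10 genes was not tested.

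**Figure D3:**
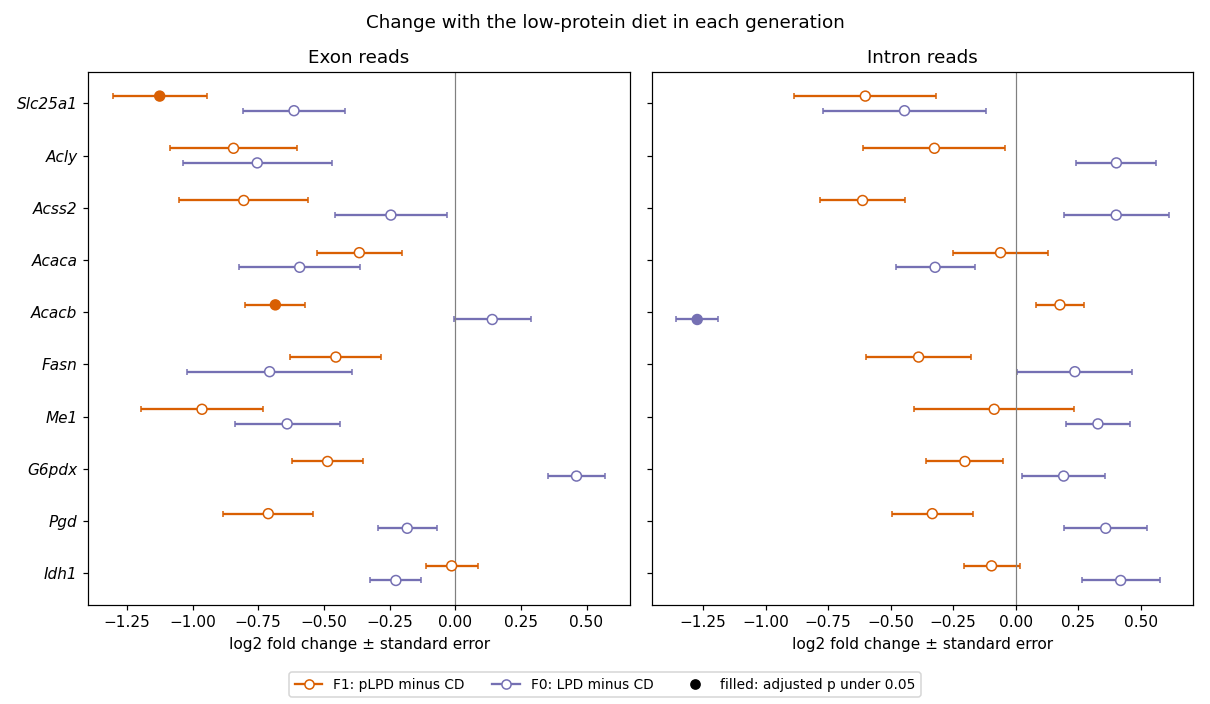
Log2 fold change with its standard error for exon reads (left) and intron reads (right) of the 10 genes, for pLPD minus CD in F1 and LPD minus CD in F0; filled points passed an adjusted p of 0.05. Exon reads of G6pdx and Acacb lie on opposite sides of 0 in the 2 generations, and intron reads of Acacb reach −1.27 in F0.

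The third comparison asked whether the diet difference itself differed between generations, by the interaction of generation and diet in all 10 libraries. G6pdx was called, with an F1 minus F0 difference of −0.96 on the log2 scale (SE 0.21, adjusted p = 0.0454, edgeR), beside 0.893% of 15111 genes called in this direction and 0.357% in the other. This call was lost in 8 of the 10 fits that left out 1 mouse, all but those without mouse 3 of F1 CD or of pLPD, with adjusted p-values between 0.0539 (without the first F0 LPD mouse) and 0.216 (without the second). Its size stayed between −1.09 and −0.83. The difference for Acacb was −0.83 (SE 0.19, adjusted p = 0.0529, edgeR), and with uniquely matching reads the adjusted p was 0.0431. For the other 8 genes, the difference ranged from −0.57 for Acss2 to 0.24 for Fasn, with adjusted p-values of 0.417 or more in edgeR. For Acly it was −0.10 with an SE of 0.43.

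Reads on introns come largely from RNA that has not been spliced. Intron reads of each gene were compared as those of its exons, and the difference between both changes was then tested within each mouse. For 8 of the 10 genes, 98.8% or more of the intron reads matched the gene alone. No intron read of G6pdx and only 22.6% to 47.8% of those of Acss2 did, so that intron values of these 2 genes cannot be assigned to them. In F1, none of the 10 genes was called on intron reads by edgeR, beside 0.26% lower and 0.163% higher of 13456 genes tested. Acss2 alone had an unadjusted p under 0.05, beside 8.17% of all genes, and with unique intron reads its log2 fold change turned from −0.61 to 0.03. The median log2 fold change over the 10 genes was −0.26 for intron reads, with Acss2 and G6pdx included.

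Acacb was the gene in which exon and intron reads parted in F1. Its intron reads were at 335, 339 and 353 CPM in F1 CD and at 343, 374 and 445 CPM in pLPD, CPM here being relative to the intron reads. While exon reads fell to 62.2% of the control, the log2 fold change of intron reads was 0.18 (SE 0.09, adjusted p = 0.446, edgeR). The ratio of exon to intron CPM was 5.87, 5.29 and 5.52 in F1 CD and 3.16, 2.89 and 3.06 in pLPD, so that the groups were far apart and each was narrow. The exon change minus the intron change was −0.86 on the log2 scale (SE 0.12, adjusted p = 0.00119, edgeR), a call that is shared by 0.0748% of 12035 genes in this direction and 0.0415% in the other. It held in all 6 fits that left out 1 mouse, between −0.90 and −0.82. For Me1 the exon change minus the intron change was of like size, −0.87, but less precise (SE 0.38, adjusted p = 0.641, edgeR).

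In other genes of the route, mouse 3 of F1 CD stood apart on introns too. Me1 intron reads were at 485, 488 and 1094 CPM in F1 CD and at 365, 834 and 752 CPM in pLPD. Those of Acly were at 515, 547 and 897 CPM against 274, 719 and 574 CPM. In both genes mouse 3 of F1 CD had the highest intron level of the 6 mice together with the lowest exon level of its group. Fasn intron reads were at 599.5, 518 and 623 CPM in F1 CD and at 259, 566 and 507 CPM in pLPD. For Me1 and Acly, leaving out mouse 3 of F1 CD makes the exon change minus the intron change more negative by construction. Without it, edgeR called 4 genes in place of 1 for a more negative exon than intron change. They were Me1 (−1.57), Acly (−0.98), Acacb (−0.86) and Acss2 (−0.52), the last with intron reads shared with other genes. Over all genes, 57 of 12334 were then called in this direction, in place of 9 of 12035.

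In F0, Acacb was again the exception, in the opposite direction. Its intron reads were at 702 and 660.3 CPM with the CD and at 294 and 267 CPM with the LPD, while exon reads overlapped. The log2 fold change of intron reads was −1.27 (SE 0.08, adjusted p = 7.6e-05, edgeR), the only one of the 10 genes called, beside 2.12% lower and 1.36% higher of 14334 genes. The exon to intron ratio of Acacb rose from 1.36 and 1.37 with the CD to 3.93 and 3.36 with the LPD. The exon change minus the intron change was 1.41 (SE 0.10, adjusted p = 2.7e-12, edgeR), and it kept its call in all 4 fits without 1 mouse. Across both generations, the F0 CD mice thus had the highest Acacb intron level, and F1 CD the highest Acacb exon level. Muscle, which is known to express Acacb, had its marker levels highest in the same F0 CD mice, as given above, and its part in the Acacb reads was not tested.

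Acly, Fasn and Me1 went the other way in F0, their exon change lying below their intron change. Acly intron reads were at 105 and 109 CPM with the CD and at 169 and 112 CPM with the LPD, with a log2 fold change of 0.40 (SE 0.16, adjusted p = 0.270, edgeR). Its exon to intron ratio fell from 33.7 and 32.8 to 16.7 and 12.5. Me1 intron reads were at 176 and 159 CPM against 239 and 179 CPM, and the ratio fell from 6.98 and 9.05 to 4.36 and 3.75. Fasn intron reads were at 79.5 and 109 CPM against 141 and 79.1 CPM, and the ratio fell from 351 and 254 to 158 and 149. The exon change minus the intron change was −1.20 for Acly (SE 0.13, adjusted p = 1.7e-08), −0.98 for Me1 (0.12, adjusted p = 1.7e-07) and −0.96 for Fasn (0.15, adjusted p = 2.3e-05) by edgeR. In all, 5 genes were called negative in F0, beside 1.42% of 12694 genes, and 1 positive, beside 2.51%. The other 2 were Acss2 (−0.69), whose intron reads are shared with other genes, and Idh1 (−0.65). The call of Acss2 was lost without the second F0 CD mouse (−0.35, adjusted p = 0.109), and that of Idh1 without the first (−0.38, adjusted p = 0.156), both by edgeR.

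**Figure D4:**
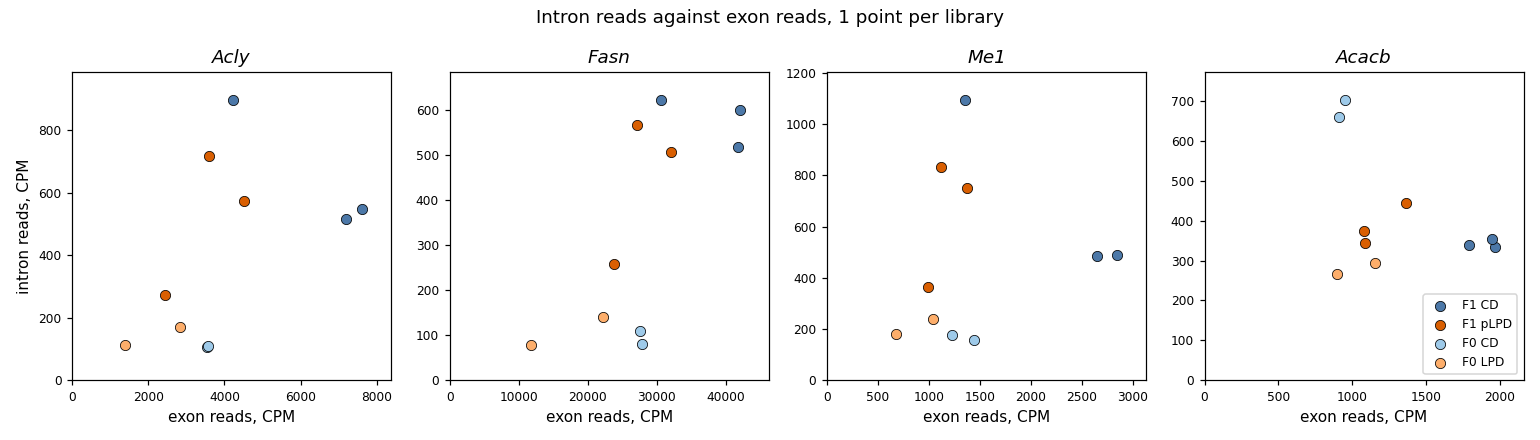
Intron reads against exon reads of Acly, Fasn, Me1 and Acacb, both in CPM on linear axes, with 1 point per mouse coloured by group. In the first 3 genes the F0 mice lie low on the intron axis, and in Acacb the 2 F0 CD mice lie highest on it, at 660.3 and 702 CPM.

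Levels of the 2 generations are set side by side without a test. Between the CD groups, exon reads were higher in F1 than in F0 in 9 of the 10 genes, by a median factor of 1.68, from 0.92 for Idh1 to 2.27 for Acss2. Intron reads were higher in F1 in 8 of the 10, by a median factor of 3.10. This counts Acss2 (3.13) and G6pdx (0.87), whose intron reads cannot be assigned to them. The largest factors in intron reads were those of Fasn (6.16) and Acly (6.09), whose exon reads differed by factors of 1.37 and 1.78. Acacb showed the reverse, with a factor of 2.04 in exon reads and 0.50 in intron reads. In exon CPM, F1 CD stood first of the 4 groups in 8 genes, F0 LPD in G6pdx and F0 CD in Idh1. For Slc25a1, F1 CD lay above F0 CD and F0 CD above pLPD without overlap, and pLPD and F0 LPD overlapped. For Acaca, G6pdx and Idh1, and likewise Me1 and Acss2, each group overlapped its neighbour in this order.

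Genes around the route were examined in lists of their own. Of 22 genes that supply or control acetyl-CoA and malonyl-CoA, none was called in F1, with 2 lower at an unadjusted p under 0.05 by edgeR and a median log2 fold change of −0.06. In F0, Slc25a10, the mitochondrial dicarboxylate carrier, was called lower (−0.93, adjusted p = 0.0110, edgeR), and so was Mid1ip1, an activator of acetyl-CoA carboxylase (−1.07, adjusted p = 0.0287, edgeR). Hmgcs1, which uses acetyl-CoA for sterol synthesis, was called higher in F0 (1.52, adjusted p = 0.0241, edgeR). Thrsp, known as a partner of Mid1ip1, stood at −0.94 in F0 without passing the threshold (adjusted p = 0.102, edgeR). Of 14 other sources of NADPH and NADP, none was called in F1, with 1 lower and 2 higher at an unadjusted p under 0.05, and 1 was called in F0, Aldh1l1 of folate metabolism (−0.74, adjusted p = 0.0191, edgeR). Mthfd1, another folate enzyme, was called for the difference between generations (0.71, adjusted p = 0.0462, edgeR).

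None of the 4 genes of the pentose phosphate pathway beyond G6pdx and Pgd was called in F1 or F0 by edgeR, although 3 were lower in F1 at an unadjusted p under 0.05. Tkt, the transketolase gene, had a log2 fold change of −0.61 (adjusted p = 0.101) in F1 and −0.53 (adjusted p = 0.334) in F0. Taldo1, transaldolase, stood at −0.43 in F1 (adjusted p = 0.0628, edgeR). Of 14 regulators of lipogenesis, Insig1, a sterol-responsive brake on SREBP processing, was the only one called on exon reads, lower in F1 (−0.51, adjusted p = 0.0385, edgeR). Mlxipl, which encodes ChREBP, had a log2 fold change of −0.55 (adjusted p = 0.0703) in F1 and −0.59 (adjusted p = 0.0756) in F0 by edgeR. Srebf1, which encodes SREBP-1, stood at −0.26 (adjusted p = 0.468) in F1 and −0.27 (adjusted p = 0.303) in F0 by edgeR.

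Genes whose exon levels ran most like the mean of the 10 over all 10 libraries were sought among the 9929 genes whose mean reached 10 CPM. Likeness was the root mean square difference in log2 CPM, each gene taken relative to its own mean. The nearest were Tkt (0.103), Pygl, the liver-type glycogen phosphorylase (0.107), Mlxipl (0.131), C130074G19Rik (0.146) and Parm1 (0.146). The 10 genes themselves ranged from 0.155 for Acaca to 0.446 for G6pdx, which was thus the least like the others. Tkt was at 2845 ± 569 (SD, n = 3) CPM in F1 CD, 1852 ± 305 (SD, n = 3) in pLPD, 2000.4 ± 90.5 (SD, n = 2) in F0 CD and 1382 ± 559 (SD, n = 2) in F0 LPD. Mlxipl was at 272 ± 36.5 (SD, n = 3), 184 ± 31.5 (SD, n = 3), 179 ± 17.7 (SD, n = 2) and 119 ± 25.4 (SD, n = 2) CPM in the same order. The points share libraries and their composition, so that this order is a description.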

How the data were processed

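RNA from iWAT of 10 male mice was sequenced as 1 library per mouse. The deposited count columns hold the numbers of reads that the authors counted per gene on exons and on introns of mm10 with CLC Genomics Workbench, all reads and uniquely matching reads apart, without normalization. The deposited RPKM values were computed by the authors from total exon reads and exon length, and serve here for levels between genes. The library total they imply exceeds the exon reads, at 16497252 against 6351075 in pLPD mouse 1 and 15963412 against 7680937 in F1 CD mouse 1. In F1, the median log2 fold change of the 10 genes was −0.85 on RPKM by limma and −0.70 by edgeR. Whether counting used the strand is not given in the sources used here. Exon reads numbered 6351075 to 10044546 per library.

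Groups came from the sample labels. Counts were fitted in R 4.3.3 with edgeR 4.0.16 (filterByExpr, TMM, quasi-likelihood F test, two-sided), each generation alone. Benjamini-Hochberg adjustment ran over all genes tested, with a threshold of 0.05, and standard errors are the log2 fold change divided by the square root of F. Exon and intron changes were compared in a fit with the mouse as a block and separate TMM factors. Fits were tested on simulated data. Exact permutation tests cannot go below 0.1 with 3 mice against 3, or 0.333 with 2 against 2, and were not used. Alternatives used DESeq2 1.42.0, limma 3.58.1 on log2 RPKM with 0.1 added, other filters, other reads and omitted mice. The 10 genes, the lists and the tests were chosen with earlier results of these data known. The rule for named genes allowed, beside the 10 genes, those of each list past the threshold, up to 3 more of each list with the largest change in F1 or F0 whether past it or not, and the 5 nearest profiles; not every gene it allows is named. Outside it, Srebf1 and the adipocyte markers present were named for their role, and Pdgfra, Dpp4, Ly6a, Cd3e, Lck, Ccr7 and Krt5 after their values were seen.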

Additional observations from a re-analysis of the deposited data

Results flagged for a closer look

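The change of G6pdx with the diet differed between generations in the interaction test, a call that most omissions of 1 mouse ended. Exon reads of this gene had a log2 fold change of −0.49 in pLPD offspring and 0.46 in LPD-fed males, and the difference of −0.956 passed the threshold in edgeR's interaction test over 10 libraries (adjusted p = 0.0454). With uniquely matching reads it was −0.91 (adjusted p = 0.0286). The call was lost in 8 of the 10 fits without 1 mouse, with adjusted p-values up to 0.216, and with the replicate block (adjusted p = 0.0567). Generation, age, library set and own against paternal diet cannot be told apart in it.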

How the results depend on the processing

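Calls among the 10 genes depended on the alternative, while directions mostly did not. In F1 exon reads, 8 genes were called lower without a filter on low counts (564 genes lower and 234 higher in all). By edgeR's likelihood ratio test 7 were called lower (437 and 145), and by DESeq2 5 (301 and 74). Uniquely matching reads gave 4 (191 and 42), and reads on the whole gene 1 (97 and 22). With the exon share as a covariate, which did not overlap between the diets, none was called (12 and 1, member median −0.28). All 4 groups in one fit gave 277 and 62 genes in all, and limma on RPKM 115 and 2. Leaving out 1 mouse gave 0 to 8 of the 10 genes, 17 to 370 genes lower and 1 to 140 higher in all. In F0 exon reads, 5 genes were called lower and 1 higher without the filter (710 and 633 in all). The likelihood ratio test gave 2 and 1 (545 and 438), and DESeq2 0 and 1 (186 and 188). With the exon share as a covariate it was 1 and 1 (492 and 437). All 4 groups in one fit gave 65 and 110 genes, and limma on RPKM 52 and 30. Leaving out 1 mouse gave 0 to 6 lower and 0 to 1 higher of the 10 (37 to 223 and 68 to 281 in all), with medians from −0.85 to −0.21. In intron reads without the filter, 4 genes were called lower in F1, and 2 lower and 4 higher in F0, where leaving out 1 mouse gave 1 to 2 lower and 0 to 2 higher. For the difference between generations, uniquely matching reads gave 2 genes and leaving out 1 mouse 0 to 2. For exon against intron change in F1, leaving out 1 mouse gave 1 to 4 negative (7 to 57 negative and 0 to 35 positive in all). For the alternatives on intron reads and on the difference between generations, no counts over all genes were taken. Those counts of the 10 genes thus cannot be set against a general rise in calls. The causes were not tested.

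The labels do not say whether the replicate numbers pair the mice. Around their group means, same-numbered mice correlated by 0.039, −0.00016 and 0.0072 in F1, and differently numbered mice by −0.062 to 0.056. With 2 mice per group, as in F0, the deviations mirror each other, so that the 0.049 there is not informative. These correlations cannot exclude pairing. With the replicate block, F1 exon reads gave 2 of the 10 genes lower (212 lower and 48 higher in all), and F1 intron reads 1. In F0 the replicate block gave 4 lower and 1 higher of the 10 (735 and 656 in all), and 1 intron call higher. The block ended the call of G6pdx between generations (adjusted p = 0.0567) and added Acacb (adjusted p = 0.0339).

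Signs turned for small differences. With the exon share as a covariate, Idh1 was at 0.18 in F1 exon reads. With reads on the whole gene, Acacb was at −0.18 in F0, and with unique intron reads Acss2 was at 0.029 in F1. With 1 mouse left out, values spanned 0 in 14 cases. They were −0.085 to 0.057 for Idh1 in F1 exon reads, −0.30 to 0.42 for Me1 and −0.27 to 0.19 for Acaca in F1 intron reads, −0.057 to 0.31 for Acacb and −0.71 to 0.10 for Acss2 in F0 exon reads, and −0.24 to 0.59 for Fasn and −0.026 to 0.40 for G6pdx in F0 intron reads. For the difference between generations they were −0.52 to 0.50 for Acly, −0.61 to 0.015 for Me1, −0.095 to 0.62 for Acaca and −0.14 to 0.78 for Fasn. For exon against intron change they were −0.52 to 0.11 for Acss2 and −0.24 to 0.22 for Fasn in F1, and −0.35 to 0.0074 for Slc25a1 in F0. The alternatives on unique intron reads, the omission of mice and the block for the difference between generations and between read kinds, and the levels from unique reads, were chosen after seeing the data.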

Other observations

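Mitochondria hold a fatty acid synthesis route of their own, which makes the precursor of lipoic acid. Of the 10 genes of this route tested, none was called in F1 by edgeR, with 1 lower at an unadjusted p under 0.05 and a median log2 fold change of −0.11. In F0, Mecr, which encodes its enoyl reductase, was called higher with the LPD (0.72, adjusted p = 0.0189, edgeR), with a median of 0.18 over the 10 genes. The change of Mecr differed between generations by −1.04 (adjusted p = 0.0175, edgeR). Acsf3, which makes mitochondrial malonyl-CoA, stood at 0.30 in F0 (adjusted p = 0.184, edgeR).

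Brown and beige adipocyte markers in F0 included Ucp1 (2.89), Elovl3 (2.69), Otop1 (1.97), Cidea (1.62), Cox7a1 (1.48) and Cox8b (1.19), all called higher with the LPD by edgeR. In F1 the only call was Ppargc1a, higher in pLPD (1.05, adjusted p = 0.0260, edgeR). Yet 6 of the 8 markers had a negative log2 fold change in F1, with a median of −0.25. By edgeR, 2 of them were lower in F1 at an unadjusted p under 0.05. Ppargc1a was the 1 marker of the 8 that was lower in F0, with means of 21.4 CPM with the CD and 16.3 CPM with the LPD. Of the adipocyte markers, Retn was called lower in F0 (−0.78, adjusted p = 0.0234, edgeR), and for Retn (1.01) and Cfd (1.13) the change differed between generations. The list as a whole was not lower in F0, with 5 of 15 markers negative and a median log2 fold change of 0.09. At an unadjusted p under 0.05 by edgeR, 4 of the 15 were lower and 3 higher. Of the 7 macrophage markers, only Cd163 was called in F0, lower with the LPD (−0.47, adjusted p = 0.0358, edgeR), and 4 of the 7 were negative there. The change of Adgre1 differed between generations (−0.70, adjusted p = 0.0353, edgeR), and the F1 minus F0 difference was negative in all 7. Among progenitor markers, Dcn was called lower in F0 (−0.62), and among B and T cell markers Ms4a1 was called higher in F0 (0.46). No endothelial marker was called in F1 or F0 by edgeR, with 2 of 6 lower at an unadjusted p under 0.05 in F1 and 1 lower and 1 higher in F0.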
